A study of Nicotiana tabacum with 6 samples.

Results

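Dehydrin transcripts were measured by RNA-seq in young leaves of tobacco seedlings (Nicotiana tabacum, variety NC82). One group of plants overexpresses NtPhyA, a gene named after the light receptor phytochrome A (OE, 3 libraries), and the others are wild type (WT, 3 libraries). All 6 libraries come from leaves held for 24 h at 4 °C, so OE and WT share the chilling and the data hold no unchilled leaf. The labels do not say which promoter drives the transgene, how many transgenic lines were sampled, or whether the replicates are separate plants, so the p-values may measure no more than technical spread between libraries.

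The dehydrins are the gene models whose description in the authors' tables holds the word dehydrin and whose mean abundance over the 6 libraries is at least 1. There are 7 of them among 69500 listed models. Another 4 models carry the word but lie below that mean. The members were chosen by that word and by their mean over all libraries, so their being expressed is not a result. The mean of the members runs down to 1.43 just inside the limit, and the highest model just outside it is at 0.407.

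Dehydrins are hydrophilic, largely unfolded proteins that belong to the late embryogenesis abundant (LEA) proteins. They carry a lysine-rich repeat, the K segment, which can fold against membranes, and they are known to protect membranes and enzymes when cells lose water. Many plants accumulate them in leaves during cold acclimation, where their genes are targets of CBF/DREB factors of the AP2/ERF family and of abscisic acid signalling through bZIP factors.

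The values are the authors' normalized abundances, which name no unit. Setting the levels of 2 models against each other assumes that the values are per transcript length. Library totals were 475581, 451603 and 440137 in OE replicates 1, 2 and 3, and 460319, 450972 and 568208 in WT replicates 1, 2 and 3. Read totals are not known here. Judged from the value of 1 read in rarely seen models, the deepest library held about 1.34 times the reads of the shallowest. That estimate assumes that the values were scaled alike in all libraries, which is not known. By it, the deepest was OE replicate 2 and the shallowest WT replicate 3. WT replicate 3 had the largest total and the fewest models above 0 (31369). Phytochrome models, the 5 with A/B/C/D/E in their description, summed to 1.96 ± 0.86 in OE and 1.95 ± 0.78 in WT (SD, n = 3 each), which does not check the labels, because the model of the transgene is not named. Leaf markers were present throughout: the 9 models for the small subunit of Rubisco, the carbon-fixing enzyme, summed to 29353, 18662 and 11895 in OE and to 22070, 12149 and 6559 in WT. The 62 chlorophyll a/b-binding antenna models summed to 9142, 5086 and 1968 in OE and to 7093, 3586 and 1678 in WT. In both groups replicate 1 was the highest and replicate 3 the lowest for these leaf markers, and in each number OE was above WT.

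One dehydrin made up most of the family's transcripts in OE and in WT. Nitab4.5_0000588g0250, described by the single word dehydrin, was at 9186, 8854 and 7876 in OE and at 9196, 9433 and 13515 in WT. It was the most or the second most abundant of all listed models in every library. Its OE values lay just below its WT values, with OE replicate 1 and WT replicate 1 almost equal and WT replicate 3 far above the rest. The means were 8638 ± 681 in OE and 10715 ± 2428 in WT (SD, n = 3 each), a log2 difference of -0.29 ± 0.36 (SE; limma adjusted p = 0.999). The 95% confidence interval of the OE to WT ratio ran from 0.453 to 1.48.

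Next in abundance was Nitab4.5_0000723g0150. It was at 573, 696 and 688 in OE and at 1031, 864 and 1500 in WT. The groups did not overlap, and the OE replicates lay close together while WT replicate 3 was again the highest. The log2 difference was -0.76 ± 0.33 (SE; limma adjusted p = 0.999, unadjusted p = 0.0522), and the 95% interval ended at 0.01. Unlike the 5 less abundant members, this model was not at its lowest in OE replicate 3.

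The model numbered directly after it, Nitab4.5_0000723g0160, had another pattern. Its values were 508, 438 and 124 in OE and 976, 464 and 357 in WT, and the groups overlapped. WT replicate 1 was the highest library and OE replicate 3 the lowest. Its abundance relative to Nitab4.5_0000723g0150 was 0.886, 0.629 and 0.181 in OE and 0.947, 0.537 and 0.238 in WT. Like the leaf markers, it was highest in replicate 1 and lowest in replicate 3 of both groups, and the part of that difference between libraries in the dehydrin values was not tested. The group means of this ratio were 0.565 ± 0.357 in OE and 0.574 ± 0.356 in WT (SD, n = 3 each). The log2 difference of the model itself was -0.85 ± 0.63 (SE; limma adjusted p = 0.999).

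**Figure D1:**
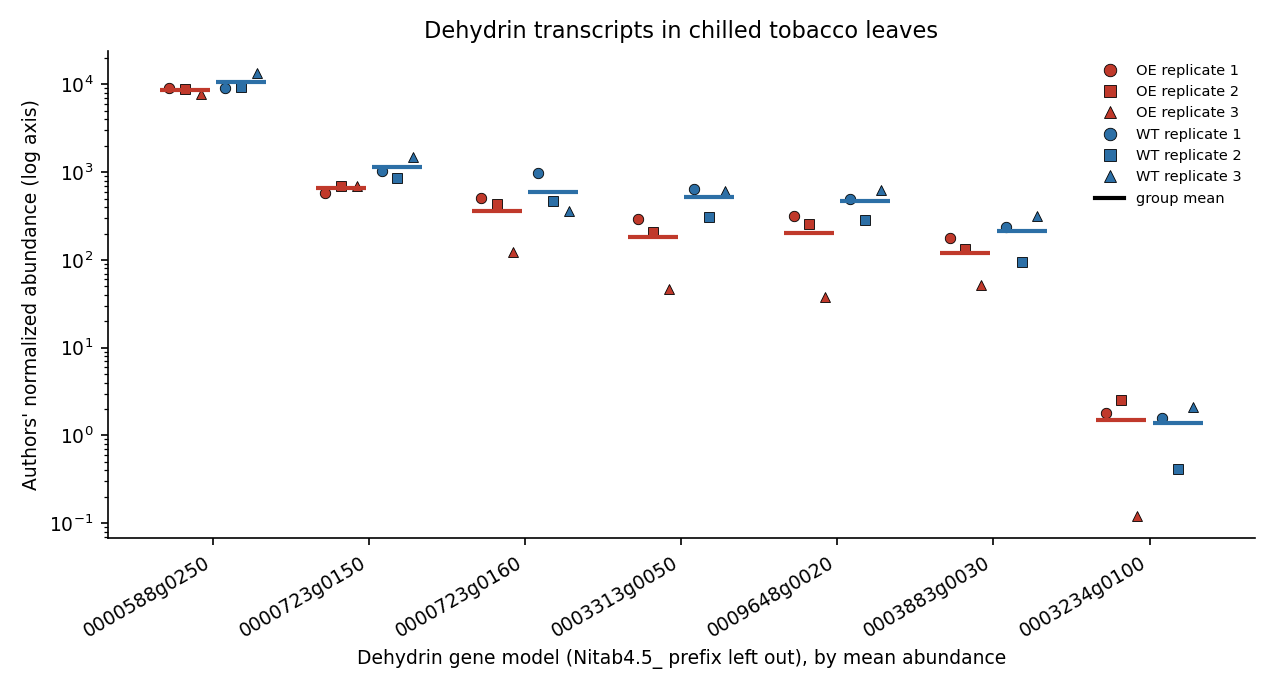
Normalized abundance of the 7 dehydrin models in each library on a log axis, with OE left of WT for each model, a marker shape per replicate number and a bar at the group mean. Nitab4.5_0000588g0250 lies about 10.8 times above the next model, and OE replicate 3 is the lowest library of 6 models.

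A pair of models at similar levels showed the widest gaps. Nitab4.5_0003313g0050 was at 291, 209 and 46.6 in OE and at 636, 308 and 604 in WT. All OE values were below all WT values, and OE replicate 3 was far below the other OE replicates. The means were 182 ± 125 in OE and 516 ± 181 in WT (SD, n = 3 each), and limma put the log2 difference at -1.78 ± 0.69 (SE; adjusted p = 0.999). Its unadjusted p of 0.036 was the only one among the 7 members below 0.05.

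The other of the pair, Nitab4.5_0009648g0020, was at 317, 258 and 37.6 in OE and at 490, 282 and 628 in WT. Here OE replicate 1 was above WT replicate 2, so the groups overlapped, and the OE libraries spanned an 8.42-fold range against 2.23-fold in WT. The log2 difference was -1.59 ± 0.80 (SE; limma adjusted p = 0.999). The ratio of Nitab4.5_0003313g0050 to this model stayed between 0.808 and 1.24 in OE and between 0.962 and 1.30 in WT, while both moved over more than a 10-fold range across the libraries (13.7-fold and 16.7-fold). Tobacco carries the genomes of a pair of ancestral species. How the counting divided reads between near-identical copies is not known, so the separate values of such copies are uncertain. Whether these models are such copies was not tested, because no sequence was compared.

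Nitab4.5_0003883g0030 was at 178, 133 and 51.8 in OE and at 236, 94.2 and 317 in WT. OE replicate 3 was the lowest and WT replicate 3 the highest, with WT replicate 2 below OE replicates 1 and 2. Limma put its log2 difference at -0.83 ± 0.60 (SE; adjusted p = 0.999).

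The last member, Nitab4.5_0003234g0100, is described as a dehydrin with a bacterial Ig-like domain and was hardly expressed. It was at 1.78, 2.56 and 0.12 in OE and at 1.59, 0.41 and 2.11 in WT. The groups overlapped fully, and at this level the values rest on few reads. The means were 1.49 ± 1.25 in OE and 1.37 ± 0.87 in WT (SD, n = 3 each), and limma gave a log2 difference of -0.01 ± 0.52 (SE; adjusted p = 0.999). Its log2 difference had the opposite sign when the libraries were scaled to equal totals (0.05).

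Of the 4 dehydrin models under the limit, Nitab4.5_0005796g0030 was at 0.72, 0.56 and 0.06 in OE and at 0.43, 0.20 and 0.47 in WT. Nitab4.5_0003603g0070 was listed at 0 in OE and at 0.02 in WT replicate 2 alone. Nitab4.5_0000136g0200 and Nitab4.5_0001506g0100 were listed at 0 in all 6 libraries.

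The order of the levels was clear at the top and not in the middle. Nitab4.5_0000588g0250 exceeded Nitab4.5_0000723g0150 in 6 of 6 libraries, by 10.8 times in the mean. Nitab4.5_0000723g0150 exceeded Nitab4.5_0000723g0160 in 6 of 6 as well, and Nitab4.5_0000723g0160 exceeded Nitab4.5_0003313g0050 in 5 of 6. Nitab4.5_0003313g0050 was above Nitab4.5_0009648g0020 in 3 of 6 libraries, so their order is within the spread. Nitab4.5_0009648g0020 was above Nitab4.5_0003883g0030 in 5 of 6, the exception being OE replicate 3.

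Summed over the 7 members, dehydrin abundance was 11054, 10590 and 8824 in OE and 12567, 11446 and 16923 in WT. The sums did not overlap, and their group means stood in a ratio of 0.744 (OE to WT), which is a description of members chosen with results of these data known. As a share of all listed abundance, which takes out the larger total of WT replicate 3, dehydrins were 2.32%, 2.34% and 2.00% in OE and 2.73%, 2.54% and 2.98% in WT. The most abundant model gave 85.3 ± 3.4% of the sum in OE and 78.5 ± 4.8% in WT (SD, n = 3 each). The other 6 together were at 1868, 1737 and 948 in OE and at 3371, 2013 and 3408 in WT. No test was run on the sums, so whether they differ beyond the spread between libraries is not known. Even for a real difference, fewer cells with dehydrin transcripts and less transcript per cell cannot be told apart in these leaf RNA samples.

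**Figure D2:**
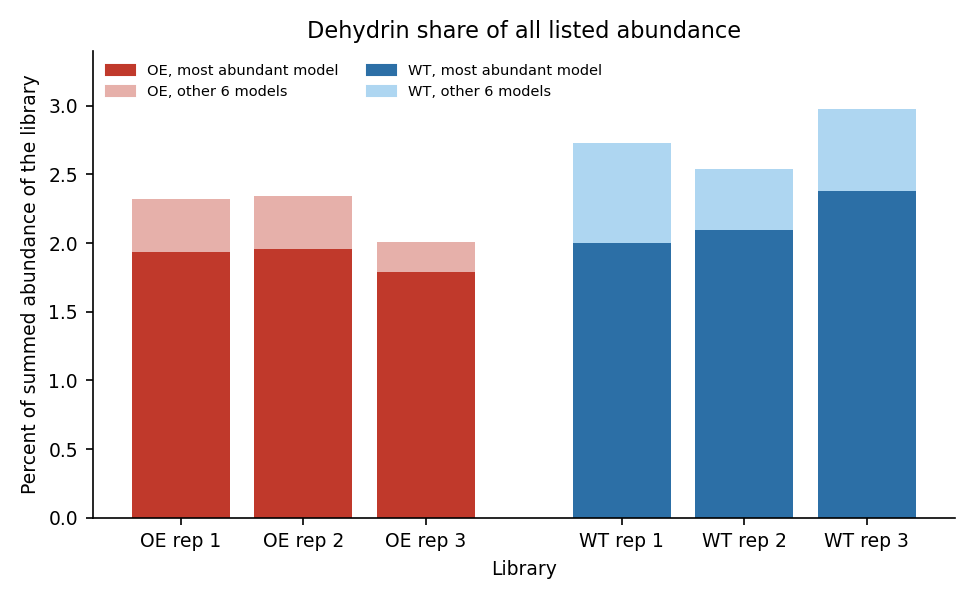
Dehydrin share of the summed abundance of each library in percent, with the most abundant model in the dark part of a bar and the other 6 models in the light part. The OE bars reach between 2.00% and 2.34%, and the WT bars between 2.54% and 2.98%.

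None of the 7 dehydrins passed the limma test at an adjusted p below 0.05. Of all 17962 tested models, 1 passed (0.00557%), so almost no model of any kind was called. The OE values lay below all WT values in 3 of the 7 dehydrins, where 3.86% of all tested models had this order. That share covers models of all levels and was not computed for models as abundant as these 3. One dehydrin had an unadjusted p below 0.05 with a lower OE mean, against 1.35% of all models. The log2 mean was lower in OE in 7 of 7 members, with Nitab4.5_0003234g0100 changing sign under scaling to equal totals, and 51.7% of all models had a lower OE mean. The members' median log2 difference was -0.83, and that of all tested models was -0.01.

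The background differed with abundance. Among 852 models averaging at least 100, which hold 6 of the dehydrins, 70.3% had a lower log2 mean in OE, with a median difference of -0.23. All 6 were below this median, Nitab4.5_0000588g0250 by little (-0.29). Ordered from the most negative difference, Nitab4.5_0003313g0050 was number 3 and Nitab4.5_0009648g0020 number 6 of the 852. Nitab4.5_0000723g0160, Nitab4.5_0003883g0030 and Nitab4.5_0000723g0150 were numbers 45, 48 and 71, and Nitab4.5_0000588g0250 was number 357. This limit of 100 was set after the values were seen.

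**Figure D3:**
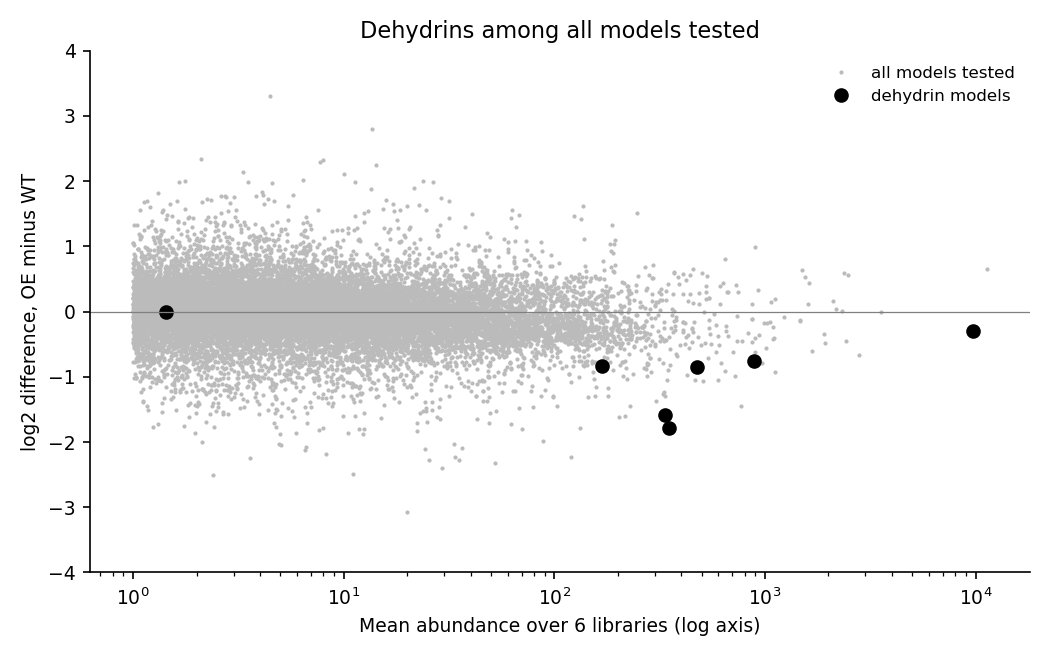
The log2 difference (OE minus WT) of each of the 17962 tested models against its mean abundance on a log axis, with the 7 dehydrins as black points. The 6 abundant dehydrins lie between -1.78 and -0.29, and Nitab4.5_0003313g0050 and Nitab4.5_0009648g0020 lie near the lower edge of the models of their abundance.

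The sizes depended on single libraries. OE replicate 3 was the lowest library for 6 of the 7 members, and for 5 of the 6 with a mean of at least 100, where it was the lowest for 35.4% of all models of that abundance. In 3 of these 6 (Nitab4.5_0000723g0160, Nitab4.5_0003313g0050 and Nitab4.5_0009648g0020) it was below 0.5 times every other library, as in 1.88% of the 852 models. WT replicate 3, the library with the largest total, was the highest for 4 of the 7 members, all of them among the 6 with a mean of at least 100. For the 852 abundant models it was the highest in 53.5%. What part these libraries' general differences have in the dehydrin values was not tested.

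Without OE replicate 3 the log2 differences of 4 members shrank by more than 1.5 times. They were -0.21 for Nitab4.5_0000723g0160, -0.99 for Nitab4.5_0003313g0050, -0.63 for Nitab4.5_0009648g0020 and -0.32 for Nitab4.5_0003883g0030. The difference of Nitab4.5_0000723g0150 was then -0.80 and that of Nitab4.5_0000588g0250 was -0.23, while Nitab4.5_0003234g0100 was at 0.48. The members' median was -0.32, and 4 of the 6 abundant dehydrins were below the median of their abundance class, which was -0.23. Nitab4.5_0003313g0050 was then number 62 of 852, Nitab4.5_0000723g0150 number 90, Nitab4.5_0009648g0020 number 134, Nitab4.5_0003883g0030 number 324, Nitab4.5_0000588g0250 number 429 and Nitab4.5_0000723g0160 number 445.

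Without WT replicate 3 the difference of Nitab4.5_0000588g0250 was -0.11, that of Nitab4.5_0000723g0150 was -0.54 and that of Nitab4.5_0003883g0030 was -0.47. The median over the members was -0.54, against -0.05 for the abundant models. With both replicates numbered 3 left out, the members' median was -0.38, and Nitab4.5_0003883g0030 and Nitab4.5_0003234g0100 had higher log2 means in OE (0.04 and 0.72). Without WT replicate 1 the difference of Nitab4.5_0000723g0160 was -0.43, and without WT replicate 2 that of Nitab4.5_0003883g0030 was -1.34. No dehydrin passed in any of these fits.

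**Figure D4:**
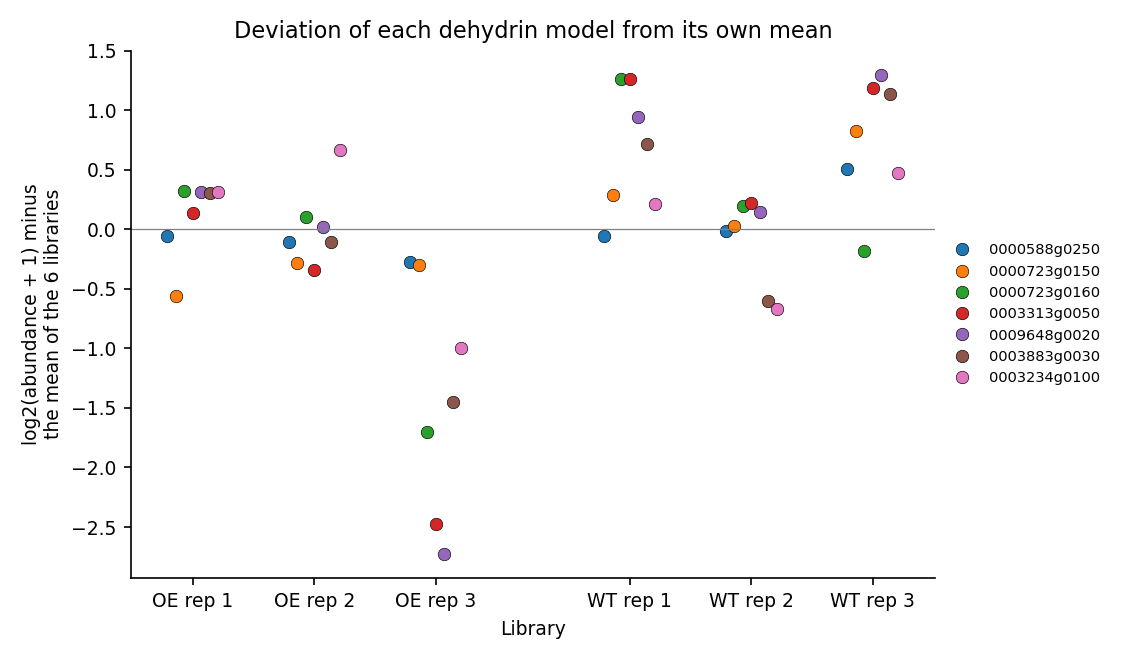
Deviation of each dehydrin model in each library from its own mean over the 6 libraries, in log2(abundance + 1) units, with a colour per model. In OE replicate 3, Nitab4.5_0009648g0020 lies at -2.73 and Nitab4.5_0003313g0050 at -2.48, while Nitab4.5_0000588g0250 lies at -0.28 and Nitab4.5_0000723g0150 at -0.30.

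**Figure D5:**
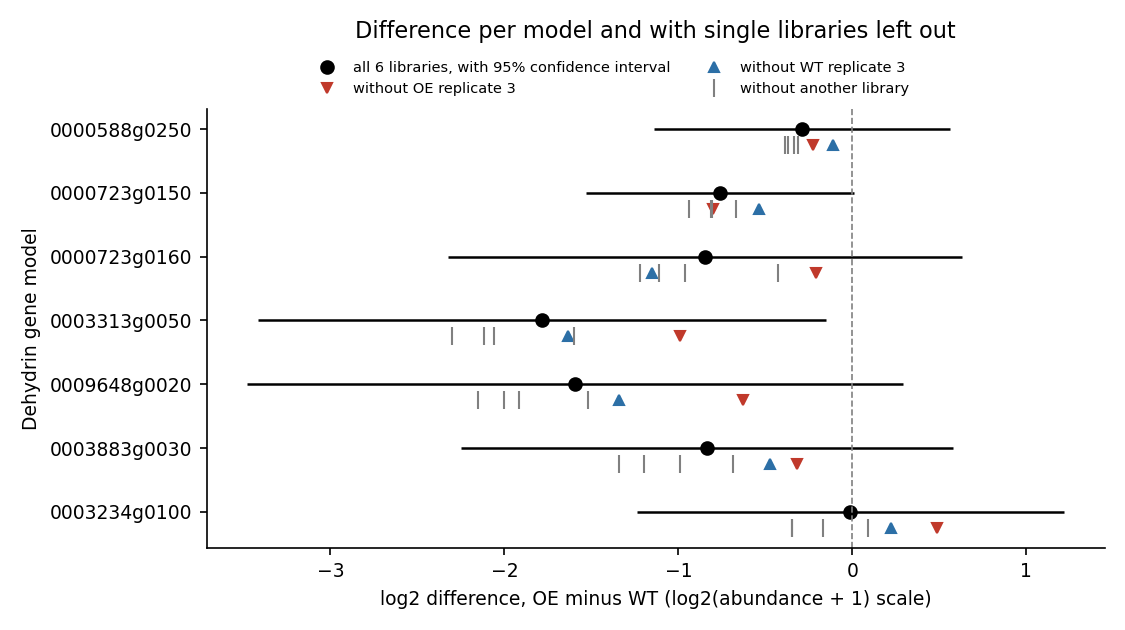
Log2 difference (OE minus WT) of each dehydrin model with its 95% confidence interval from limma, and below it the values with single libraries left out. The red markers, without OE replicate 3, lie closest to 0 or beyond it for 5 of the models, from -0.99 for Nitab4.5_0003313g0050 to 0.48 for Nitab4.5_0003234g0100.

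The dehydrins were not uniform across libraries. On the log2 scale, Nitab4.5_0003313g0050 and Nitab4.5_0009648g0020 had a Pearson r of 0.98 over the 6 libraries, and each had an r of at least 0.91 with Nitab4.5_0003883g0030 (0.91 and 0.92). Nitab4.5_0000588g0250 had an r of 0.83 with Nitab4.5_0000723g0150 and of 0.22 with Nitab4.5_0000723g0160. These are descriptions over 6 points that share their libraries and scaling. Out of 1885 models averaging at least 50, the 3 whose pattern was most like that of Nitab4.5_0000588g0250 were ribosomal proteins: S26e in Nitab4.5_0002091g0070 (r = 0.997), L12 in Nitab4.5_0003532g0070 (r = 0.992) and L36e in Nitab4.5_0004439g0110 (r = 0.992). S26e was at 59.8, 56.2 and 42.6 in OE and at 62.9, 61.7 and 125 in WT. WT replicate 3 was its highest library and OE replicate 3 its lowest. S26e was picked for its match to Nitab4.5_0000588g0250, so that order is not a separate result.

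The wider cold and dehydration response was read from lists of descriptions. None of the listed models was called by limma. An unadjusted p below 0.05, in either direction, was reached by 8 of 66 LEA, 6 of 144 AP2/ERF, 1 of 6 ABA/WDS, 1 of 66 bZIP and 1 of 15 HVA22-type models and by 0 models of the other lists, against 2.82% of all tested models. The other LEA proteins, listed by description, had 40 of 66 tested models with a lower and 26 with a higher log2 mean in OE. Their median difference was -0.04, which was -0.13 without OE replicate 3. How near these models are to the dehydrins in sequence was not tested. The most abundant of them, the LEA-5 model Nitab4.5_0002820g0100, was at 2826, 3258 and 3761 in OE and at 2155, 2379 and 6886 in WT, so WT replicate 3 alone stood above the OE range. Another LEA-5 model, Nitab4.5_0000116g0500, was picked for the smallest unadjusted p of the list at a mean of at least 5. It was at 109, 133 and 152 in OE and at 201, 203 and 347 in WT (limma adjusted p = 0.999). Its groups did not overlap, which is not a separate result, because it was picked by this contrast. Of the 66 LEA models, 4 had all OE values below all WT values and 3 had the reverse order. Of all tested models, 3.86% had the lower order.

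ABA/WDS-induced proteins, a family whose name refers to abscisic acid and water deficit stress, had 6 of 6 tested models with a lower OE mean, with a median of -0.60, and of -0.33 without OE replicate 3. The most abundant, Nitab4.5_0001187g0080, was at 1228, 796 and 487 in OE and at 1550, 861 and 1153 in WT, and OE replicate 3 was its lowest library as it was for most dehydrins. Nitab4.5_0002764g0010, picked for the smallest unadjusted p of this list, was at 44.1, 52.6 and 28.2 in OE and at 120, 78.3 and 155 in WT. Its groups did not overlap, which is not a separate result, because it was picked by this contrast. It was the only 1 of the 6 without overlap, where 3.86% of all tested models had all OE values below all WT values.

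Regulators had these values. AP2/ERF factors, the family that holds the CBF/DREB activators of cold genes, had 93 of 144 models with a lower OE mean and a median of -0.12, which was -0.34 without OE replicate 3. Their most abundant model, Nitab4.5_0002716g0070, was at 269, 232 and 223 in OE and at 228, 254 and 266 in WT. Type 2C protein phosphatases, some of which hold back abscisic acid signalling in Arabidopsis, had 58 of 89 with a lower OE mean and a median of -0.12, which was -0.13 without OE replicate 3. Their most abundant model, Nitab4.5_0005632g0010, was at 123, 168 and 116 in OE and at 192, 141 and 235 in WT. bZIP factors had 39 of 66 with a lower OE mean (median -0.08, and -0.015 without OE replicate 3), and Bet v I proteins, a family that holds abscisic acid receptors, 9 of 15 (median -0.07, and -0.05 without OE replicate 3). The most abundant bZIP model, Nitab4.5_0000464g0100, was at 108, 118 and 161 in OE and at 127, 141 and 197 in WT.

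Other cold-linked families gave no call either. The cold acclimation protein WCOR413, a membrane protein family named in wheat, had 3 of 4 models with a lower OE mean (median -0.11, and -0.19 without OE replicate 3). Its most abundant model, Nitab4.5_0008782g0020, was at 65.1, 82.2 and 88.1 in OE and at 82.1, 68.8 and 100.3 in WT, overlapping throughout. HVA22-type proteins, named in barley for induction by abscisic acid, had 9 of 15 with a lower OE mean (median -0.11, and 0.03 without OE replicate 3). Cold shock domain proteins, which bind nucleic acids, had 2 of 5 (median 0.19, and 0.41 without OE replicate 3). Nitab4.5_0010567g0010 had the highest level and smallest p among cold shock domain models with a mean of at least 5. It was at 3.6, 5.96 and 6.48 in OE and at 5.56, 9.45 and 5.13 in WT. Its log2 difference of -0.27 had the opposite sign to the median of its list. The most abundant HVA22-type model, Nitab4.5_0000020g0350, was at 2.98, 7.16 and 36.7 in OE and at 3.50, 8.91 and 16.5 in WT, here with replicate 3 the highest of each group. No model was described as a galactinol or raffinose synthase.

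The remaining models with the smallest unadjusted p of their list, at a mean of at least 5, went both ways, and each had a limma adjusted p of 0.999. Values were higher in OE for an AP2/ERF factor, Nitab4.5_0007367g0050, at 8.07, 6.58 and 5.85 in OE and 2.27, 2.41 and 5.76 in WT, without overlap. A bZIP factor, Nitab4.5_0009676g0030, was at 29.4, 20.6 and 13.7 in OE and at 16.6, 9.58 and 6.34 in WT. A Bet v I protein of the major latex type, Nitab4.5_0002430g0070, was at 18.0, 17.7 and 31.6 in OE and at 11.1, 18.05 and 11.6 in WT. These pairs of groups overlapped, as they did for the most abundant Bet v I model, Nitab4.5_0008779g0020, at 134, 58.3 and 31.4 in OE and 132, 55.1 and 58.8 in WT. Means were lower in OE for a type 2C phosphatase, Nitab4.5_0000714g0020, at 39.0, 59.2 and 24.3 in OE and 77.0, 47.3 and 104 in WT. The same held for a WCOR413 model, Nitab4.5_0000090g0130, at 20.9, 18.9 and 17.6 in OE and 17.6, 22.6 and 39.9 in WT. An HVA22-type model, Nitab4.5_0002257g0130, was at 7.87, 4.81 and 2.72 in OE and at 7.57, 4.95 and 3.88 in WT, with nearly equal groups.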

How the data were processed

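The authors deposited a signal per gene model, a normalized abundance, with a separate table for each plant material. The submitters' processing notes name the tools HISAT2, StringTie and RSEM; their versions, settings, genome build and unit are not known here. Nothing says that the tables were normalized together, so each comparison of OE with WT assumes it. The authors' group means were not used. Here, log2(value + 1) of 17962 models averaging at least 1 was fitted with limma 3.58.1 in R 4.3.3 (trend and robust options, group as the only term, 4 residual degrees of freedom), with Benjamini-Hochberg adjustment over all models and calls at an adjusted p below 0.05. Differences are OE minus WT and understate changes of low genes. The fit was tested on simulated data. The members, lists and tests were chosen with earlier results of these data known. The LEA list was narrowed to the words late embryogenesis, because the letters LEA also matched other words. Every member is named; of each list, the most abundant model and the one with the smallest p at a mean of at least 5 are named. RefSeq identifiers matched 0 of the 7 members, and no sequence is shown. Alternatives were another pseudocount, other filters, 3 scalings, plain limma, a replicate block, an adjusted p below 0.1 and leaving out libraries.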

Additional observations from a re-analysis of the deposited data

How the results depend on the processing

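No dehydrin was called under any of the 16 alternatives, and the smallest adjusted p of a member over all limma fits was 0.738. At the looser adjusted p of 0.1 there were 0 dehydrins as well, and 1 had an unadjusted p below 0.05. Of the 7 members, 6 or 7 had a lower log2 mean in OE when 1 library was left out; the members' median difference was then between -1.20 and -0.32, and the ratio of summed abundance, OE to WT, between 0.689 and 0.846. Under the scalings that ratio was between 0.707 and 0.809, and without both replicates numbered 3 it was 0.901. Nitab4.5_0003234g0100 was between -0.349 and 0.485 with 1 library left out. The sign turned for Nitab4.5_0003234g0100 with equal totals (0.05) and without OE replicate 3 (0.48), WT replicate 1 (0.09), WT replicate 3 (0.22) or both replicates numbered 3 (0.72), and for Nitab4.5_0003883g0030 without both replicates numbered 3 (0.045), a setting added after seeing the data; the cause was not tested. The single call of the whole table, no dehydrin, was lost (0 models) with a pseudocount of 0.1, no filter, each of the 3 scalings, each left-out library and both replicates numbered 3. With the replicate block it was 0 too; deviations of same-numbered libraries from the group means correlated at 0.56, -0.11 and 0.42 for numbers 1, 2 and 3, so numbers 1 and 3 deviated together and number 2 did not, and the labels do not say what a number marks. The leaf markers also fell from number 1 to number 3 in both groups. The correlations cannot decide whether same-numbered libraries are pairs, because a low value at number 2 does not exclude it. The main fit did not take the numbers as pairs. The median over all models stayed between -0.04 and 0.07.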

Other observations

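The models most like the less abundant dehydrins across the 6 libraries are given as values. They were picked with the values in view, from the 3 models with the highest Pearson r for each dehydrin, out of 1885 averaging at least 50. Not all 3 are shown for each dehydrin. For Nitab4.5_0003313g0050 the first was an ABA/WDS-induced protein, Nitab4.5_0001187g0090 (r = 0.986), at 630, 604 and 253 in OE and at 1030, 629 and 1161 in WT. The third was a heat shock factor, Nitab4.5_0005947g0030 (r = 0.979). Its values were 75.3, 74.03 and 27.0 in OE and 121, 65.8 and 110 in WT. For Nitab4.5_0009648g0020 the first was a 3-oxo-5-alpha-steroid 4-dehydrogenase model, Nitab4.5_0002640g0050 (r = 0.990). It was at 67.8, 63.25 and 37.7 in OE and at 76.2, 61.0 and 74.7 in WT. The second was an aquaporin-like channel, Nitab4.5_0000101g0120 (r = 0.985). Its values were 389, 327 and 90.2 in OE and 422, 375 and 473 in WT. For Nitab4.5_0003883g0030 a BURP domain protein, Nitab4.5_0000250g0250 (r = 0.994), was at 65.4, 59.1 and 23.5 in OE and at 103, 39.8 and 126 in WT. OE replicate 3 was the lowest library of each model named here. It was also the lowest for the dehydrins they were picked to resemble, so this is not a separate result.

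For Nitab4.5_0000723g0150 the first was a LEA-5 model, Nitab4.5_0000116g0500 (r = 0.979), and the second a phytosulfokine, a peptide growth factor precursor. This model, Nitab4.5_0000663g0130 (r = 0.977), was at 84.02, 137 and 140 in OE and at 265, 258 and 495 in WT. Its groups did not overlap, as for the dehydrin it was picked to resemble. For Nitab4.5_0000723g0160 the first was a chlorophyll a/b-binding protein, Nitab4.5_0000471g0030 (r = 0.971), at 64.5, 50.3 and 29.5 in OE and at 76.3, 54.5 and 54.8 in WT. The second was an AP2/ERF model, Nitab4.5_0026202g0010 (r = 0.969), and the third a CCAAT-binding factor, Nitab4.5_0005476g0020 (r = 0.965). The first models differed between the dehydrins numbered one after the other. They also differed between Nitab4.5_0003313g0050 and Nitab4.5_0009648g0020, which had an r of 0.98 with each other, so a different first model says little. Each r was read from 6 libraries that share their scaling.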
